A study of Mus musculus with 6 samples.

Results

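The sarcomeric myosin heavy chains and cardiac myosin-binding protein C were followed as 9 genes in 6 RNA libraries of mouse cells. The genes are Myh6, Myh7, Myh7b, Myh3, Myh8, Myh1, Myh2, Myh4 and Mybpc3, found by symbol among the 49315 genes of the count table. All 9 had counts in at least 1 library, and 4 of them (Myh6, Myh7, Myh7b and Mybpc3) passed the filter on low counts and were tested. Each of 3 groups held 2 libraries of polyadenylated RNA, all from wild type tail tip skin cells. The fibroblast group received negative control lentiviral vectors and stands for day 0. The early group received CRISPRa vectors and stands for day 7. Its cell type label is still fibroblasts, and its first replicate is described as early reprogrammed and its second as partially reprogrammed. The late group, named progenitors, received CRISPRa vectors, was taken after isolation of colonies and stands for day 22. CRISPRa, here in its SAM form, recruits transcriptional activators to a gene's own promoter through a Cas9 without cutting activity. Which genes the guides targeted, and how many colonies made up a late library, is not given in the sources used here.

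Myosin heavy chains form the thick filament of striated muscle, where their heads pull on actin and hydrolyse ATP. Myh6 encodes the fast alpha chain of the adult mouse heart and Myh7 the slow beta chain of the fetal ventricle and of slow skeletal muscle. The balance between them is a textbook readout of heart maturity, thyroid hormone and stress. Mybpc3 encodes the cardiac protein that stripes the thick filament and restrains the myosin heads. Myh3 and Myh8 are the embryonic and perinatal skeletal chains, and Myh1, Myh2 and Myh4 the adult fast skeletal ones.

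Myh6, Myh7 and Myh7b each carry a microRNA in an intron, and these 3 mature sequences are shown because their host genes are the heavy chains that differed most between libraries. The sequences are those of RefSeq (GRCm38.p6), with the seed, bases 2 to 8, in capitals.
mmu-miR-208a-3p, in Myh6, chr14:54949072-54949093 on the minus strand: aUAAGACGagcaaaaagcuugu
mmu-miR-208b-3p, in Myh7, chr14:54975710-54975731 on the minus strand: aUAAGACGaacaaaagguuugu
mmu-miR-499-5p, in Myh7b, chr2:155622893-155622913 on the plus strand: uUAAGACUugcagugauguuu
The Myh6 and Myh7 microRNAs shared their seed, which only those 2 of 1738 mature mouse sequences held, and differed at 3 of 22 bases outside it. The Myh7b microRNA differed from both at 1 base of the seed. Mature microRNAs were not measured in these libraries of polyadenylated RNA.

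The promoters of the 4 tested genes are shown because CRISPRa acts at promoters and because these genes were high together in 1 library. Each piece is the part of RefSeq's window (GRCm38.p6, 250 bases before the start site to 50 after it) that lies upstream and holds no annotated exon. Capitals mark the M-CAT motif CATTCC, the GATA core GATAA, the MEF2 site, the TATA box TATAAA and the CArG box, on either strand.
Myh6, chr14:54966642-54966857, minus strand: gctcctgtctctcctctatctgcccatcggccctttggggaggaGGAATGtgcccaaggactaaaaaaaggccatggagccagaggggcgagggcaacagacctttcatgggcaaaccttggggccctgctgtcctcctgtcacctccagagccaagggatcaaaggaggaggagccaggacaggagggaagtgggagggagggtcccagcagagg
Myh7, chr14:54994627-54994876, minus strand: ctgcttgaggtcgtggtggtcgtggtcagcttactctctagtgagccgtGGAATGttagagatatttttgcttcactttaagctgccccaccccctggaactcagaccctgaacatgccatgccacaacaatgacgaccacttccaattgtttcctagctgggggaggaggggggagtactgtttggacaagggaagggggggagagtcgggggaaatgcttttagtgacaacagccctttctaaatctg
Myh7b, chr2:155610993-155611211, plus strand: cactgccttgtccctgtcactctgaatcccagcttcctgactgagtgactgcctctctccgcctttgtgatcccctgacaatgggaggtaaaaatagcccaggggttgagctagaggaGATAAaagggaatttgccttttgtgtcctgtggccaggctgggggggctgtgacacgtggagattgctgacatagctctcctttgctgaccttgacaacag
Mybpc3, chr2:91117894-91118143, plus strand: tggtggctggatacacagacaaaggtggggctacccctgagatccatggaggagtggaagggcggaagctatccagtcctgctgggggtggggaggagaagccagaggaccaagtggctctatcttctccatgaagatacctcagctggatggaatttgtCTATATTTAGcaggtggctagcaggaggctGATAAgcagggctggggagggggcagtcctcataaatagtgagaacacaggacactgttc
The Myh6 piece lay in an intron of an annotated transcript that starts farther upstream, and the other 3 pieces ended at the base before the gene. M-CAT, the element bound by TEAD factors, was found in the windows of Myh6 (position -206, with the start site as 0) and Myh7 (position -201), and also in those of Myh1 and Myh4, which had few or no reads. RefSeq gives Myh7 a second, overlapping window without a match. M-CAT occurred in 14.7% of all 32851 windows of 300 bases. GATAA was found in the windows of Myh7b, Mybpc3 and Myh2, against 25.4% of all windows, and a MEF2 site in that of Mybpc3, against 3.19%. Windows of Myh8, Myh1 and Myh4 also held a MEF2 site, which there overlaps a TATAAA on the other strand. AGGTCA was found in the window of Myh7b (position -46, not marked), against 16.3% of all windows. AGGTGT (13.7% of windows) had no match in the windows of the 4 tested genes. The E-box CANNTG (72.3%) was found in those of all 4, can overlap AGGTGT and is not marked. A match of letters describes the window and is not evidence of binding.

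Total counts ranged from 20172874 to 40122999 per library. Late replicate 2 stood apart from late replicate 1 and the other 4 libraries, with 10.3% of its counts on mitochondrial genes against 1.48% to 2.16%. The 7 fibroblast markers were detected in every library, except Lum in early replicate 1, and summed to between 2519 and 12080 CPM (counts per 1000000 after TMM scaling). The early libraries differed, with all 7 lower in early replicate 1 than in early replicate 2. Col3a1 was at 17.0 against 3888 CPM there and Dcn at 3.21 against 679, while Col1a1 was closer, at 1910 against 3445. The 13 cardiomyocyte markers, which hold none of the 9 genes, summed to between 427 and 768 CPM in 5 libraries, mostly from the calcium pump gene Atp2a2, and to 37340 CPM in late replicate 2. Several other marker lists were also highest there: 5 erythroid genes summed to 1042 CPM against 0.470 to 2.91, 7 endothelial genes to 723 against 4.68 to 26.8, and 5 adipocyte genes to 76.0 against 0.0891 to 0.542. The 12 skeletal muscle markers summed to 1531 CPM there, mostly from the creatine kinase gene Ckm (1415), which the heart also expresses, against 12.2 to 30.9. Tnnc2, the fast skeletal troponin C, had 0 counts in all 6 libraries. The 6 smooth muscle markers were not highest there, where their sum was 1091 CPM, but in fibroblast replicate 2, where it was 3228. The 6 macrophage markers summed to 125 CPM in late replicate 2, against 245 and 1060 in the fibroblast libraries and 4.08 to 10.7 in the other 3. The late libraries are therefore given apart throughout. The part of other cell types, of the mitochondrial share and of this library in the results was not tested, except where a value without the library is given.

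The alpha chain Myh6 had the most reads of the 9 genes in every library, and its late libraries lay far apart. Myh6 (ENSMUSG00000040752, chromosome 14, 54941921 to 54966927, minus strand, GRCm38) was at 7.82 and 62.8 CPM in fibroblast replicates 1 and 2, 5.84 and 5.92 CPM in early, and 25.8 and 25360 CPM in late replicates 1 and 2. Both early libraries lay below both fibroblast libraries, late replicate 1 lay between the fibroblast libraries, and late replicate 2 lay above everything else. Its late libraries differed 985-fold and its fibroblast libraries 8.02-fold, while its early libraries differed 1.01-fold. In bulk RNA such as this, fewer cells of a type and less RNA per cell cannot be told apart. Per kilobase of exon, Myh6 ranked 10 among the genes of late replicate 2 (26388 with counts), against ranks from 5131 to 12171 in the other 5 libraries.

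The beta chain Myh7 (ENSMUSG00000053093, chromosome 14, 54970684 to 54994626, minus strand), the neighbour of Myh6, followed another order among the low libraries. It was at 0.0672 and 0.618 CPM in fibroblasts, 3.07 and 0.663 CPM in early, and 2.67 and 362 CPM in late libraries. Both early and both late libraries lay above both fibroblast libraries, and the early and late libraries overlapped. The counts behind the low values were 2 and 21 in fibroblasts, 69 and 14 in early and 64 in late replicate 1, against 12903 in late replicate 2. Early replicate 2 had fewer Myh7 counts than fibroblast replicate 2 and lay above it only after scaling for depth.

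Myh7b (ENSMUSG00000074652, chromosome 2, 155611212 to 155634307, plus strand), a slow-type chain of heart and slow muscle, was near the floor in 5 libraries. Its counts were 5 and 17 in fibroblasts, 5 and 1 in early and 7 in late replicate 1, between 0.0473 and 0.500 CPM. Late replicate 2 held 3343 counts or 93.9 CPM, 322-fold the CPM of late replicate 1. The fibroblast and early libraries overlapped.

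Mybpc3 (ENSMUSG00000002100, chromosome 2, 91118144 to 91136516, plus strand) tracked Myh6 through all 6 libraries. It was at 1.07 and 6.09 CPM in fibroblasts, 0.802 and 0.663 CPM in early, and 4.84 and 2543 CPM in late libraries. As for Myh6, the early libraries were lowest, late replicate 1 lay between the fibroblast libraries, and late replicate 2 was highest, at 526-fold the CPM of late replicate 1.

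The 5 skeletal chains stayed between 0 and 10 counts in every library and did not pass the filter. Myh3, the embryonic chain, had 0 and 1 counts in fibroblasts, 4 and 1 in early, and 10 and 4 in late libraries. Myh8, the perinatal chain, had 2 and 0, then 0 and 0, then 8 and 8 counts in the same order. Late replicate 2 thus held no more reads of either than late replicate 1, and by CPM it held less (0.112 against 0.417 for Myh3, and 0.225 against 0.334 for Myh8). Myh1 had 4 and 10 counts in fibroblasts, 0 in both early libraries and in late replicate 1, and 3 in late replicate 2. Myh2 had 3 and 10 counts in fibroblasts, 0 and 1 in early, and 0 and 4 in late libraries. Myh4 had 1 count in all, in early replicate 1. A floor of 3 counts corresponds to between 0.0842 and 0.142 CPM, and values under it rest on fewer than 3 reads. In a fit without the filter, the edgeR adjusted p of these 5 genes ranged from 0.162, for Myh1 in early cells against fibroblasts, to 1.

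**Figure D1:**
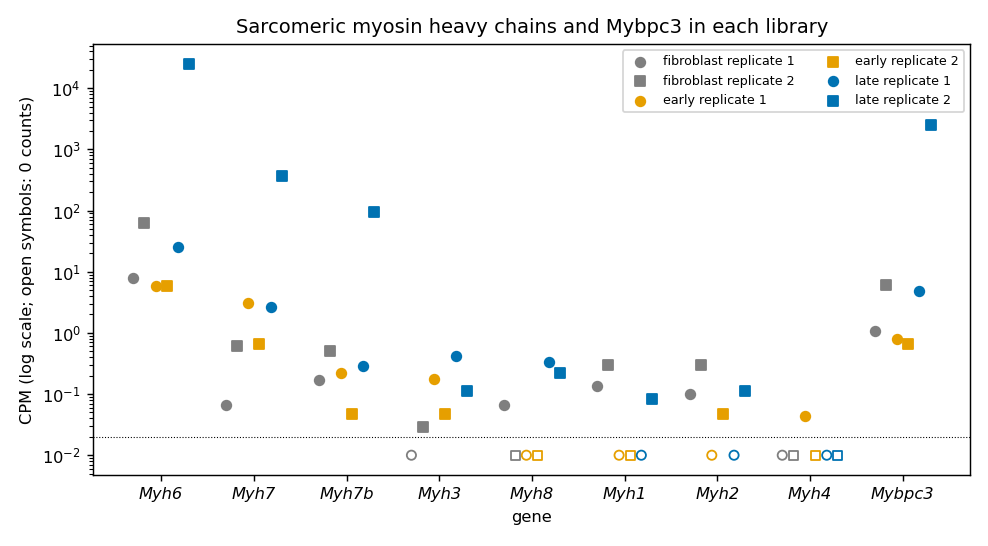
CPM (log axis) of the 9 genes in each of the 6 libraries, with open symbols at the bottom for 0 counts. Late replicate 2 stands far above the other libraries for Myh6, Myh7, Myh7b and Mybpc3, at 25360, 362, 93.9 and 2543 CPM, and not for the 5 skeletal chains.

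Per kilobase of exon, the level that allows genes to be compared, Myh6 came first of the 9 in all 6 libraries, with 58.3% of their summed level in early replicate 1 and 85.0% in late replicate 2. Mybpc3 came second in 5 libraries, with 13.2% to 21.3% of the summed level. In early replicate 1 Myh7 was second, at 24.0%, ahead of Mybpc3 at 12.9%. In late replicate 2 Myh7 held 0.948% and Myh7b 0.319%, and each of the 5 skeletal chains was at or below 0.0191 CPM per kilobase. The 9 genes took 2.52% of all counts of late replicate 2, of which Myh6 alone took 2.25%. In the other 5 libraries the 9 genes took 0.000762% to 0.00641% of the counts.

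The sarcomeric chains were set against the 4 non-sarcomeric class II heavy chains, which make the contractile bundles of non-muscle and smooth muscle cells. Of the summed level per kilobase of all 12 chains, the 8 sarcomeric ones made up 0.709% and 4.31% in fibroblasts, 0.822% and 0.820% in early, and 2.89% and 97.0% in late libraries. Myh9, the main non-muscle chain, was the highest of the 12 in 5 libraries, from 92.4 to 197 CPM per kilobase, and stood at 76.7 in late replicate 2, where the sarcomeric sum was 3827. Myh10, the other widespread non-muscle chain, was at 87.8 and 103 CPM in fibroblasts, 290 and 269 in early, and 322 and 229 in late libraries, all early and late values above all fibroblast values. Over all genes tested, 32.3% in early and 35.7% in late cells lay above fibroblasts without overlap. The log2 fold change of Myh10 was 1.55 ± 0.26 (SE) in early cells and 1.53 ± 0.26 in late cells, and neither passed the test (edgeR adjusted p = 0.0556 and 0.0564). Of the 4 chains, 0 were called by edgeR in any comparison. At an unadjusted p under 0.05 there were 2 in early cells and 3 in late cells against fibroblasts and 2 in late against early, the same numbers as by DESeq2. Of all 16688 genes tested, 4976, 5426 and 1709 had an unadjusted p under 0.05 in these 3 comparisons. DESeq2 called 4201, 4683 and 936 of them.

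**Figure D2:**
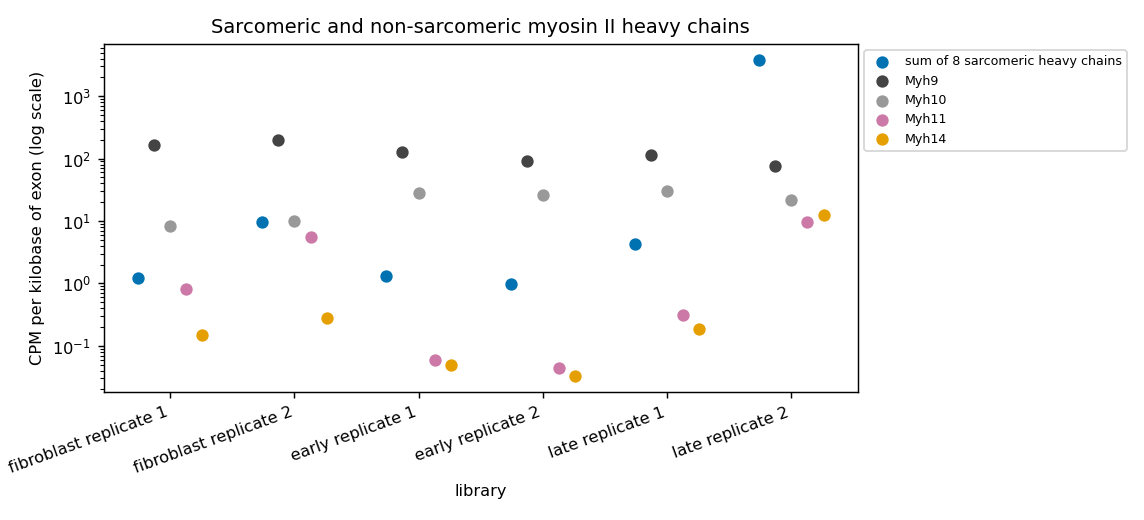
CPM per kilobase of exon (log axis) of the 8 sarcomeric heavy chains, summed, and of the 4 non-sarcomeric chains, for each library. The sarcomeric sum lies below Myh9 in 5 libraries and reaches 3827, above all 4, in late replicate 2.

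The ratio of alpha to beta chain reads separated the libraries differently from either gene alone. There were 117 Myh6 reads per Myh7 read in fibroblast replicate 1 (exact 95% counting interval 31.9 to 968, from 2 Myh7 reads) and 102 in fibroblast replicate 2 (66.3 to 165). The ratio was 1.90 in early replicate 1 (1.41 to 2.58) and 8.93 in early replicate 2 (5.13 to 16.8). It was 9.66 in late replicate 1 (7.46 to 12.7) and 70.0 in late replicate 2 (68.8 to 71.2). Both early libraries and late replicate 1 thus had intervals below those of the fibroblast libraries and late replicate 2. As a share of the summed level of both genes per kilobase, Myh6 made up 99.3% and 99.2% in fibroblasts, 70.9% and 92.0% in early, and 92.5% and 98.9% in late libraries. The ratio of Myh6 to Mybpc3 reads moved far less, from 5.33 (4.36 to 6.55) in late replicate 1 to 10.3 (8.93 to 11.9) in fibroblast replicate 2, with 9.97 (9.90 to 10.0) in late replicate 2. These intervals cover counting error only, and the ratios were not tested across replicates.

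**Figure D3:**
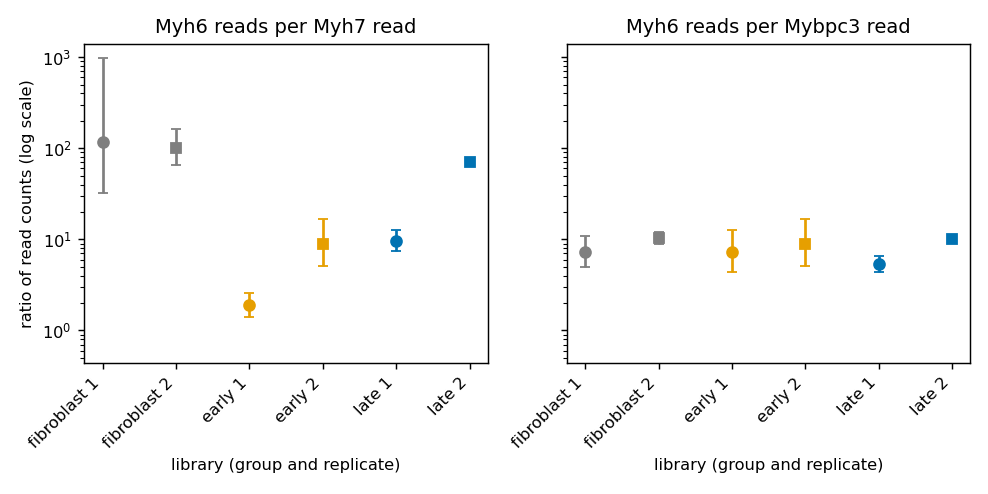
Reads of Myh6 per read of Myh7 (left) and per read of Mybpc3 (right) in each library, on log axes with exact 95% counting intervals. The Myh6 to Myh7 ratio is between 1.90 and 9.66 in the early libraries and late replicate 1 and between 70.0 and 117 in the other 3, while the Myh6 to Mybpc3 ratio stays between 5.33 and 10.3.

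Each gene's counts in the low libraries were also expressed as a percent of its counts in late replicate 2, without scaling for depth. Myh6 was at 0.0258% and 0.236% in fibroblasts, 0.0145% and 0.0138% in early libraries and 0.0684% in late replicate 1. Mybpc3 was at 0.0353%, 0.229%, 0.0199%, 0.0155% and 0.128% in the same order. The medians of the 13 cardiomyocyte markers were 0.0443%, 0.287%, 0.0292%, 0.0321% and 0.160%, and those of the 5 erythroid markers were 0.0344%, 0.285%, 0.0294%, 0.0361% and 0.150%. Single cardiomyocyte markers ran far higher, up to 34.4% for the sodium-calcium exchanger Slc8a1 in fibroblast replicate 2. The erythroid medians rest on few reads, as no erythroid marker had more than 58 counts in these libraries. Alas2 stood at 0.223% to 0.446% on 3 to 6 counts, and Hba-a2 had 0 counts in fibroblast replicate 1 and early replicate 1. The 6 endothelial markers stood elsewhere, with medians of 0.261%, 0.613%, 0.193%, 0.121% and 3.18%. In fibroblast replicate 2, Myh6, Mybpc3, the globin gene Hbb-bs (0.285%) and the cardiac light chain Myl2 (0.293%) thus stood at similar percents of late replicate 2. Whether reads of late replicate 2 were carried into the other libraries was not tested.

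Myh7 did not follow those percents. It was at 0.0155% and 0.163% in fibroblasts, 0.535% and 0.108% in early libraries and 0.496% in late replicate 1. In early replicate 1 its counting interval (0.416% to 0.677%) lay above that of Myh6 (0.0121% to 0.0172%), and the same held in late replicate 1 (0.382% to 0.634% against 0.0631% to 0.0741%) and early replicate 2 (0.0593% to 0.182% against 0.0115% to 0.0165%). In both fibroblast libraries the intervals of Myh7 and Myh6 overlapped (0.101% to 0.249% against 0.226% to 0.247% in replicate 2). Myh7b was at 0.0299% to 0.509%. Its interval lay above that of Myh7 in fibroblast replicate 2, below it in early replicate 1, and overlapped it in the other 3 libraries.

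**Figure D4:**
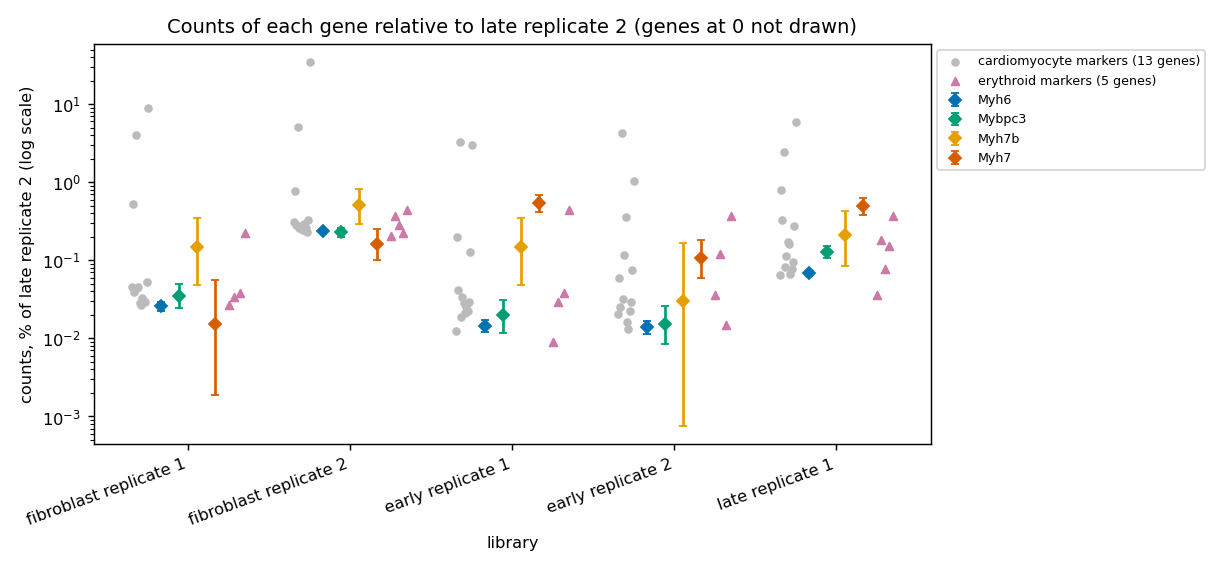
Counts of Myh6, Mybpc3, Myh7b and Myh7 in 5 libraries as a percent of the same gene's counts in late replicate 2 (log axis, bars are exact 95% counting intervals), beside the cardiomyocyte and erythroid markers. Myh6 and Mybpc3 lie among or just below the lower markers in each library. Myh7 lies above Myh6 and Mybpc3, though not above all markers, in the early libraries and late replicate 1, at 0.535%, 0.108% and 0.496%.

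Early cells were compared with fibroblasts, and none of the 4 tested genes was called. The CRISPRa vectors and the day differ together between these groups and cannot be told apart. Over all genes, 1.53% of 16688 passed the test in this comparison. Myh7 was higher in both early libraries, with a log2 fold change of 2.41 ± 2.23 (SE, edgeR quasi-likelihood test, Benjamini-Hochberg adjusted p = 0.511). Myh6 was lower in both, at -2.59 ± 2.41 (adjusted p = 0.514), and so was Mybpc3, at -2.29 ± 2.35 (0.555). Myh7b stood at -1.28 ± 2.54 (0.775). All 4 fold changes were about the size of their standard errors or smaller, 0 of the 4 had an unadjusted p under 0.05, and DESeq2 called 0. Without overlap between the libraries, 1 gene was higher and 2 were lower, where 32.3% and 34.4% of all genes were.

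Late cells were compared with fibroblasts, and all 4 fold changes were positive and large without passing the test. Vectors, day and isolation of colonies differ together here and cannot be told apart. Myh7 had a log2 fold change of 9.01 ± 2.71 (edgeR adjusted p = 0.100), Myh6 of 8.49 ± 3.13 (0.137), Mybpc3 of 8.47 ± 2.89 (0.122) and Myh7b of 7.11 ± 2.53 (0.131). Over all genes, 1.42% were called. All 4 genes had an unadjusted p under 0.05, as did 5426 of the 16688 genes, and DESeq2 called all 4, among 4683 genes. Only for Myh7 did every late value exceed every fibroblast value, as for 35.7% of all genes. Without late replicate 2, the log2 fold change of Myh6 turned to -0.46 ± 1.20 (adjusted p = 0.828), that of Mybpc3 was 0.42 ± 1.08 (0.824) and that of Myh7 was 2.92 ± 1.41 (0.270), while Myh7b was too low to be tested. Without late replicate 1, the log2 fold change was 9.403 ± 1.433 for Myh6 and 9.38 ± 1.167 for Mybpc3. It was 9.908 ± 1.409 for Myh7 and 8.013 ± 0.8651 for Myh7b. That fit assumes the single late library to vary like the other groups.

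Late cells against early cells, the comparison of the colonies with the cells they followed, also gave large positive fold changes and no call. Day and isolation of colonies differ together here. Myh6 had a log2 fold change of 11.08 ± 3.46 (edgeR adjusted p = 0.425), Mybpc3 of 10.76 ± 3.19 (0.407), Myh7b of 8.38 ± 2.77 (0.434) and Myh7 of 6.60 ± 2.41 (0.461). No gene of the whole table passed here (0% of 16688, with 1709 at an unadjusted p under 0.05 and 936 called by DESeq2). All 4 genes had an unadjusted p under 0.05 and were called by DESeq2. Both late libraries lay above both early libraries for Myh6, Myh7b and Mybpc3, where 16.1% of all genes did, and for Myh7 they overlapped. For Myh7b this rested on 7 counts in late replicate 1 against 5 in early replicate 1 (0.292 against 0.223 CPM). Without late replicate 2, Myh6 stood at 2.13 ± 1.15 (edgeR adjusted p = 1), Mybpc3 at 2.71 ± 1.09 (0.926) and Myh7 at 0.51 ± 1.40 (1). Without late replicate 1, Myh6 stood at 11.96 ± 1.565 and Mybpc3 at 11.64 ± 1.28. Myh7b stood there at 9.26 ± 0.94 and Myh7 at 7.47 ± 1.27. For each of the 4 genes, then, no neighbouring groups in the order of levels differed beyond their spread by edgeR with all 6 libraries. The 3 comparisons share libraries and are not independent.

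**Figure D5:**
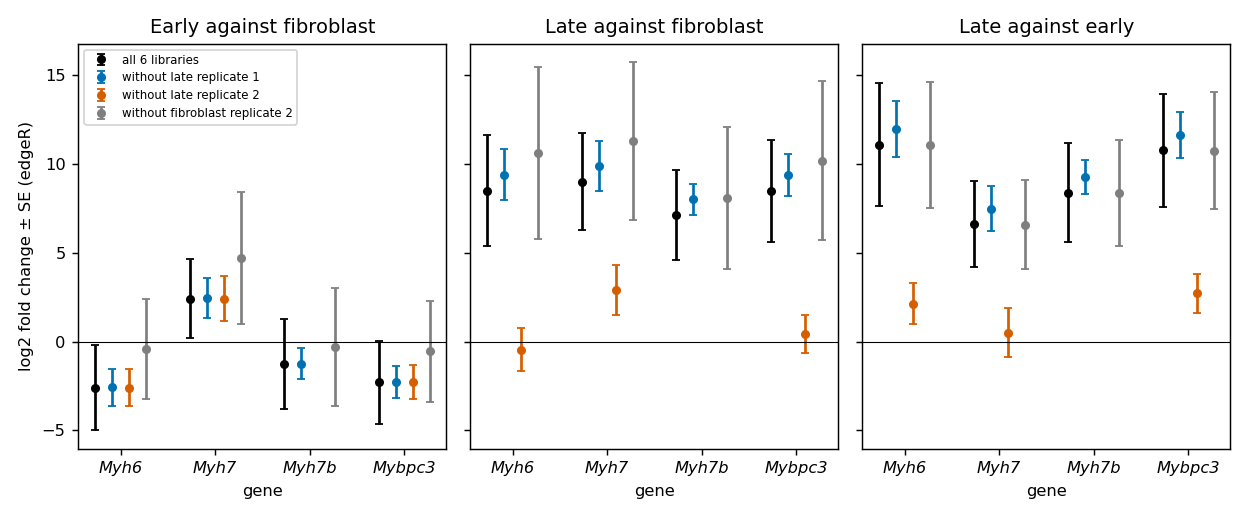
Log2 fold changes (points) and standard errors (bars) of the 4 tested genes in the 3 comparisons, from edgeR with all 6 libraries and with 1 library left out. The late comparisons fall to between -0.46 and 2.92 without late replicate 2, and Myh7b could not be tested there.

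Most genes that work with the heavy chains were also far higher in late replicate 2 than in late replicate 1, though not all. Of 17 thick filament partners (light chains, titin, M-band proteins and other myosin-binding proteins), 11 were tested. All 11 had a fitted value above fibroblasts in late cells (median log2 fold change 7.94, against 0.11 over all genes), and 0 were called by edgeR, with 9 at an unadjusted p under 0.05 and 9 by DESeq2. In early cells 2 were above and 9 below (median -2.05, against 0.00 over all genes), with 0 called, 1 at an unadjusted p under 0.05 and 1 by DESeq2. In late against early cells 10 were above (median 9.68, against -0.03), with 0 called, 9 at an unadjusted p under 0.05 and 9 by DESeq2. Of all 16688 genes, 9026 were fitted above in late and 8375 in early cells against fibroblasts, and 7857 in late against early cells. Myl2, the ventricular regulatory light chain, was at 1.34 and 10.6 CPM in fibroblasts, 1.38 and 0.757 in early, and 3.46 and 3450 in late libraries. Myl3, the ventricular essential light chain, was at 1.11 and 8.41, then 1.11 and 1.18, then 3.54 and 3111 CPM. Both put late replicate 1 between the fibroblast libraries, as Myh6 did. Mylk2, a skeletal myosin light chain kinase, was instead at 0.334 and 0.309 CPM in late replicates 1 and 2, and Mylpf, a fast skeletal light chain, at 0.875 and 1.83.

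The thin filament and the Z-disc were counted in the same way. Over all 16688 genes tested, 9026 were fitted above fibroblasts in late cells, 5426 had an unadjusted p under 0.05 and DESeq2 called 4683. Of 14 thin filament genes tested, 13 were fitted above fibroblasts in late cells (median 5.37), and 0 were called (11 at an unadjusted p under 0.05, 10 by DESeq2). Actc1, cardiac actin, was at 2.18 and 17.6 CPM in fibroblasts, 2.27 and 1.89 in early, and 16.2 and 6843 in late libraries. Tpm1, a tropomyosin that fibroblasts also use, ranged from 353 to 1199 CPM in 5 libraries and was at 7340 in late replicate 2. Of 10 Z-disc genes tested, 9 were fitted above fibroblasts (median 5.80), with 0 called, 5 at an unadjusted p under 0.05 and 6 by DESeq2. Tcap, the titin cap, was at or below 0.735 CPM in 5 libraries and at 441 in late replicate 2, and Actn2, the sarcomeric actinin, at or below 3.68 and at 1366 CPM.

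Of 9 tested genes of myosin folding and turnover, 7 were fitted above fibroblasts in late cells (median 0.33), with 0 called, 3 at an unadjusted p under 0.05 and 3 by DESeq2. Over all 16688 genes the median was 0.11, with 9026 fitted above, 5426 at an unadjusted p under 0.05 and 4683 by DESeq2. Hsp90aa1, a chaperone that folds myosin heads among many other clients, had a log2 fold change of -0.48 ± 0.36 (edgeR adjusted p = 0.382). Cryab, a small chaperone of muscle, was at 359 and 260 CPM in fibroblasts, 89.6 and 131 in early, and 112 and 537 in late libraries. Late libraries lay below both fibroblast libraries for Hsp90aa1, as for 5483 of the 16688 genes, and on both sides of them for Cryab.

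Among regulators, 2 heart factors passed the test while the myosin genes did not, though fold changes in late cells were of similar size. Against fibroblasts the log2 fold change in late cells was 8.28 ± 0.71 for Gata4 and 6.76 ± 0.58 for Gata6. For Myh6 it was 8.49 ± 3.13, with a larger standard error. Of 14 heart regulators tested, 2 rose and 0 fell in early cells and 2 rose and 0 fell in late cells against fibroblasts, Gata4 and Gata6 in both. Over all genes, 1.53% and 1.42% were called in these comparisons. At an unadjusted p under 0.05 there were 6 and 7 of the 14, against 4976 and 5426 of all 16688 genes. DESeq2 called 7 and 7 of the 14, against 4201 and 4683 of all genes. Gata4, a zinc-finger factor of heart formation, was at 0.168 and 0.324 CPM in fibroblasts, 19.8 and 17.8 in early, and 44.2 and 113 in late libraries. Late replicate 1 thus stood above both fibroblast libraries for Gata4 and between them for Myh6. Of 9 skeletal myogenic regulators, 3 were tested and 0 were called in any comparison (2, 2 and 1 at an unadjusted p under 0.05 and 2, 2 and 0 by DESeq2, in early and late cells against fibroblasts and in late against early). Myod1 and Myog, the factors that switch on fast skeletal chains, had 0 counts in all 6 libraries. Pax7, a factor of muscle stem cells, had 0 counts in both fibroblast libraries, 321 and 141 in early, and 43 and 10 in late libraries (edgeR adjusted p = 0.0642 in early and 0.0820 in late cells).

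RNAs from within the myosin loci appeared in the same library. Mhrt, an antisense RNA that starts between Myh6 and Myh7 and overlaps Myh7, had 0 and 4 counts in fibroblasts, 0 and 1 in early, and 1 and 2764 in late libraries. The host intron gene Mir208b had 0 and 3, then 1 and 0, then 0 and 772 counts, and Mir208a had 1 count in late replicate 1, 70 in late replicate 2 and 0 elsewhere. Mir499 and the antisense gene Myhas of the fast skeletal cluster had 0 counts in all 6 libraries. Counts in the microRNA genes come from longer RNA over those bases and do not measure the mature microRNAs shown above.

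The closest profiles to each gene were sought among 14141 tested genes with a symbol, by the root mean square difference of centred log2 CPM over the 6 libraries. For Myh6 they were Ckm (0.16), the creatine kinase of muscle, Mb (0.22), myoglobin, Cox6a2 (0.26), a heart and muscle subunit of cytochrome oxidase, Myl3 (0.29) and Myl2 (0.31). For Mybpc3 they were Ckm (0.21), Actc1 (0.22), Casq2 (0.28), Ttn (0.30) and Nrap (0.32). Myh6 and Mybpc3 lay 0.33 apart, while Myh6 and Myh7 lay 2.03 apart and Myh6 and Myh7b 1.21. For Myh7 the closest were Tuba8 (0.64), Kcnj11 (0.79), Eef1a2 (0.80), Pecam1 (0.93) and Abcc8 (0.94), none nearer than any of the 5 neighbours of Myh6. These measures describe these 6 libraries only.

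Related sequence and overlapping genes limit how well reads can be assigned. Of the 50-base stretches of spliced Myh6, 21.9% also occur in Myh7, and 21.2% of those of Myh7 occur in Myh6. The shares found in another gene were 25.4% for Myh1, 26.9% for Myh2, 18.9% for Myh4, 16.7% for Myh8 and 4.76% for Myh3, and 0% for Myh7b and Mybpc3. The sources used here do not give how reads mapping to several genes were counted, so the split of reads between Myh6 and Myh7 is uncertain. Exons of Mhrt cover 484 bases (5.62%) of the Myh7 exons on the opposite strand, those of Gm31251 6.07%, and those of Gm49130 1.69% of the Myh6 exons. Without a stated strand setting, reads of these pairs cannot be told apart.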

How the data were processed

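Unnormalized counts of reads for each Ensembl gene in the 6 libraries were deposited by the authors. The submitters' processing notes name featureCounts, Subread 1.5.2, STAR 2.5.2b, Trimmomatic 0.36 and the build GRCm38. Per the labels' protocols, a PureLink kit gave the RNA and poly(A) selection preceded cDNA synthesis. Annotation release, strand setting and handling of multi-mapping reads: not given in the sources used here. Columns were assigned by name: the fibroblast columns match titles, cTTF was read as early and ciCPC as late, and a wrong reading would swap those groups. No column of another series was used (0). Of 49315 identifiers, 48970 were found in GENCODE M21, including all 9 members.

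Counts were filtered by edgeR 4.0.16 (R 4.3.3) with its default expression filter, leaving 16688 genes, and scaled by TMM. CPM is counts per 1000000 of the effective library size, and levels per kilobase use the joined exons of a gene. A robust quasi-likelihood model of the 3 group means was fitted to all 6 libraries (3 residual degrees of freedom). Each of 3 contrasts was adjusted by Benjamini-Hochberg over all genes tested, with a threshold of 0.05, and standard errors come from the fold change and F. DESeq2 1.42.0, other scalings, no filter, a replicate block, smaller fits and leaving out each library were alternatives. The script was tested on simulated data. No label states where the replicates came from. The p-values thus measure only how far these libraries spread, which may be technical. Intervals are exact Clopper-Pearson at 95% and, like the floor of 3 counts, cover counting error only.

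The members and gene lists were chosen with earlier results of these data known. Named genes are all 9 members, the 2 genes per list of smallest adjusted p when called and otherwise the 2 with the highest CPM per kilobase, and the 5 nearest profiles of Myh6, Myh7 and Mybpc3. Hbb-bs, Alas2, Hba-a2, Lum, Col3a1, Dcn, Col1a1, Atp2a2, Slc8a1, Mylk2, Mylpf, Tnnc2, Myod1, Myog, Pax7, Mir208a, Mir499, Myhas, Gm31251 and Gm49130 were named after their values were seen. MicroRNA and promoter sequences are from RefSeq (GRCm38.p6), and all 9 genes had a promoter window.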

Additional observations from a re-analysis of the deposited data

How the results depend on the processing

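Of 139 alternative fold changes of the tested genes, 123 kept their direction and their side of the threshold, 15 passed only under the alternative, under DESeq2 or without late replicate 1, and 1 reversed. That was Myh6 in late cells against fibroblasts, at -0.46 without late replicate 2 (range without 1 library -0.46 to 10.64). Members called were 4 in late cells against fibroblasts and 4 against early cells under DESeq2. Leaving out 1 library gave from 0 to 4 and from 0 to 3. The cause was not tested. Genes called in early cells against fibroblasts (255) were 514 with total counts only, 2337 with no filter, 1469 with only the groups compared and 4201 under DESeq2, and 0 to 823 without 1 library. Genes called in late cells against fibroblasts (237) were 2495 with no filter, 1016 with only the groups compared and 4683 under DESeq2, and 0 to 1058 without 1 library. In late against early cells (0) they were 276 with no filter and 936 under DESeq2, and 0 to 602 without 1 library. The counts against fibroblasts were 0 without either fibroblast library. Without early replicate 1 the early count was 6, and without late replicate 2 the late count was 8. Of the fits without 1 library, those without late replicate 1 gave the highest counts for late cells. Where 1 library of a group was left out, the other was assumed to vary like the remaining groups. With the replicate number as a block, 26 and 9 genes were called against fibroblasts and 0 members. Same-numbered libraries deviated together at r = 0.121, 0.238 and 0.0859 over 16688 genes, and the labels do not pair them. Total counts moved the median of all genes from 0.00 to 0.17 in early and from 0.11 to 0.27 in late cells against fibroblasts (log2), and turned the direction of no tested member. Of 54 CPM values, 2 moved by more than the replicate SD with total counts, those of Myh6 in early cells, to 6.16 and 6.11. Without length correction the Myh6 share of Myh6 and Myh7 in late replicate 2 was 98.6%, against 98.9% with it. It moved more in early replicate 1 (from 70.9% to 65.5%), early replicate 2 (from 92.0% to 89.9%) and late replicate 1 (from 92.5% to 90.6%). In both fibroblast libraries it moved less. The 5 skeletal chains, with at most 10 counts per library, did not pass the filter with all 6 libraries.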
